A study of Homo sapiens with 16 samples.

Results

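The 10 genes placed side by side here are the transcription factor genes E2F1, E2F2, E2F3, E2F4, E2F5, E2F7 and E2F8, and the pocket protein genes RB1, RBL1 and RBL2, whose products bind and restrain E2F factors. They were chosen by symbol, as 10 of the 20531 entries of the gene table. The rule names symbols and holds no measured value, although earlier results of these data were known when it was written. The RNA came from LNCaP, a line of human prostate cancer cells that respond to androgen, transfected with a nonsense control siRNA (NS) or with siRNA against SLIRP, an RNA-binding protein that acts as a transcriptional corepressor. After transfection the cells received vehicle (ethanol) or 1 nM of the androgen dihydrotestosterone (DHT), which gave 4 groups of 4 libraries, NS-Veh and SLIRP-Veh in vehicle and NS-1nM DHT and SLIRP-1nM DHT in androgen. Every library thus came from transfected cells of 1 line, with no untransfected group. The libraries were deep enough for 436353 to 1689708 counts on genes, and replicates 1 and 2 of NS-Veh were the shallowest, with 512925 and 436353.

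E2F factors turn on the genes a cell needs to copy its DNA. E2F1, E2F2 and E2F3 are activators that RB1 holds inactive until cyclin-dependent kinases phosphorylate it. E2F4 and E2F5 repress the same genes together with RBL1 (p107) and RBL2 (p130), largely within the DREAM complex of resting cells, whereas E2F7 and E2F8 repress them without any pocket protein. Several of these genes, E2F1 among them, are themselves regulated by E2F factors, and androgen drives LNCaP cells to divide.

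The sequence just before the start site shows which of the genes carry E2F-type letters where the factors could sit. RefSeq promoter windows (GRCh38.p14, from 250 bases before to 50 bases after a start) were at hand for 8 of the 10 genes, in 10 windows. TTTCCCGC, TTTCGCGC, TTTGCCGC and TTTGGCGC were searched on both strands, and at least 1 of them lay in 3.31% of the 35116 windows of that length. Windows of 4 of the 8 genes held them. The 120 bases before the start are printed for these 4 and for E2F7, an E2F gene with no match in its window, each 5′ to 3′ on the strand of the gene, with the matching letters in capitals.
E2F1: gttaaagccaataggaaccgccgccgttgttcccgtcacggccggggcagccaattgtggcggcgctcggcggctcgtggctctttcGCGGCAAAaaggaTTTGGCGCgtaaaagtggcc
E2F2: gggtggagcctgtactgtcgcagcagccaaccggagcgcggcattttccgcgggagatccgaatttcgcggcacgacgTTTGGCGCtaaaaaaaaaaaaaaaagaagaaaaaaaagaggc
E2F3: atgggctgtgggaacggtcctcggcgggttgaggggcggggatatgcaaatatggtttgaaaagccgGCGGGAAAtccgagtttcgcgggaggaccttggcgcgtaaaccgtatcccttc
RBL1: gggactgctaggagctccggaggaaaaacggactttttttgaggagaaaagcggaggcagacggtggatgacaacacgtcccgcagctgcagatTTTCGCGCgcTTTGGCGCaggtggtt
E2F7: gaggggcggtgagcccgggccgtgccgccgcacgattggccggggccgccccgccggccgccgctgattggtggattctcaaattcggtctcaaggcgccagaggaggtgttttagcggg
These stretches lie at chr20:33686386-33686505, chr1:23531234-23531353, chr6:20401759-20401878, chr20:37095998-37096117 and chr12:77065570-77065689, in the order shown; E2F3 is on the forward strand and the other four are on the reverse strand. The matches began 33 and 20 bases before the start of E2F1, 42 before that of E2F2, 53 before that of E2F3 and 26 and 16 before that of RBL1. The second E2F3 window and the windows of E2F4, RB1 and RBL2 held no match. The single RB1 window began at base 48476200, far inside the gene, which RefSeq places at 48303751 to 48481890 of chromosome 13, so it does not show the letters before the first exon. TTTGAA or TTCGAA, letters of the cell cycle homology region bound by the MuvB core of DREAM, lay in the first windows of E2F3 and RBL2 and in 16.4% of all windows. A match is a description of letters and not a measured binding site.

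SLIRP siRNA lowered its own target in every library. SLIRP, listed as C14orf156, lay between 45.1 and 63.4 CPM (the count after TMM scaling of the library totals) in the 8 NS libraries and between 1.41 and 8.04 CPM in the 8 SLIRP libraries. All 7 luminal prostate and LNCaP markers counted were present, KLK3, FOLH1 and HOXB13 among them, and TP63, KRT5, PTPRC and PECAM1, which mark basal, immune and endothelial cells, had 0 counts throughout. The basal marker KRT14 reached at most 2 counts and the immune marker CD68 at most 6 counts, or 7.83 CPM. The 4 stromal markers together reached at most 36.0 CPM, and the neuroendocrine markers CHGA and SYP together at most 8.07 CPM. The sum of the luminal markers moved with the siRNA, from 3084 to 3480 CPM in the NS libraries and from 2290 to 2702 CPM in the SLIRP libraries. Its members did not move one way: over 16 libraries FOLH1, HOXB13 and KRT8 were called lower and 0 of the 7 higher, while in DHT these 3 were called lower and KLK3, KLK2 and TMPRSS2 higher, as KLK3 was in vehicle. Their part in the results that follow was not tested. In a bulk library fewer cells of a kind, such as cycling cells, and less RNA per cell cannot be told apart. The labels do not say that replicates were separate cultures, and the study's methods give 2 experiments without tying the replicate numbers to them, so the tests measure the spread between these libraries, part of which may be technical.

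**Figure D1:**
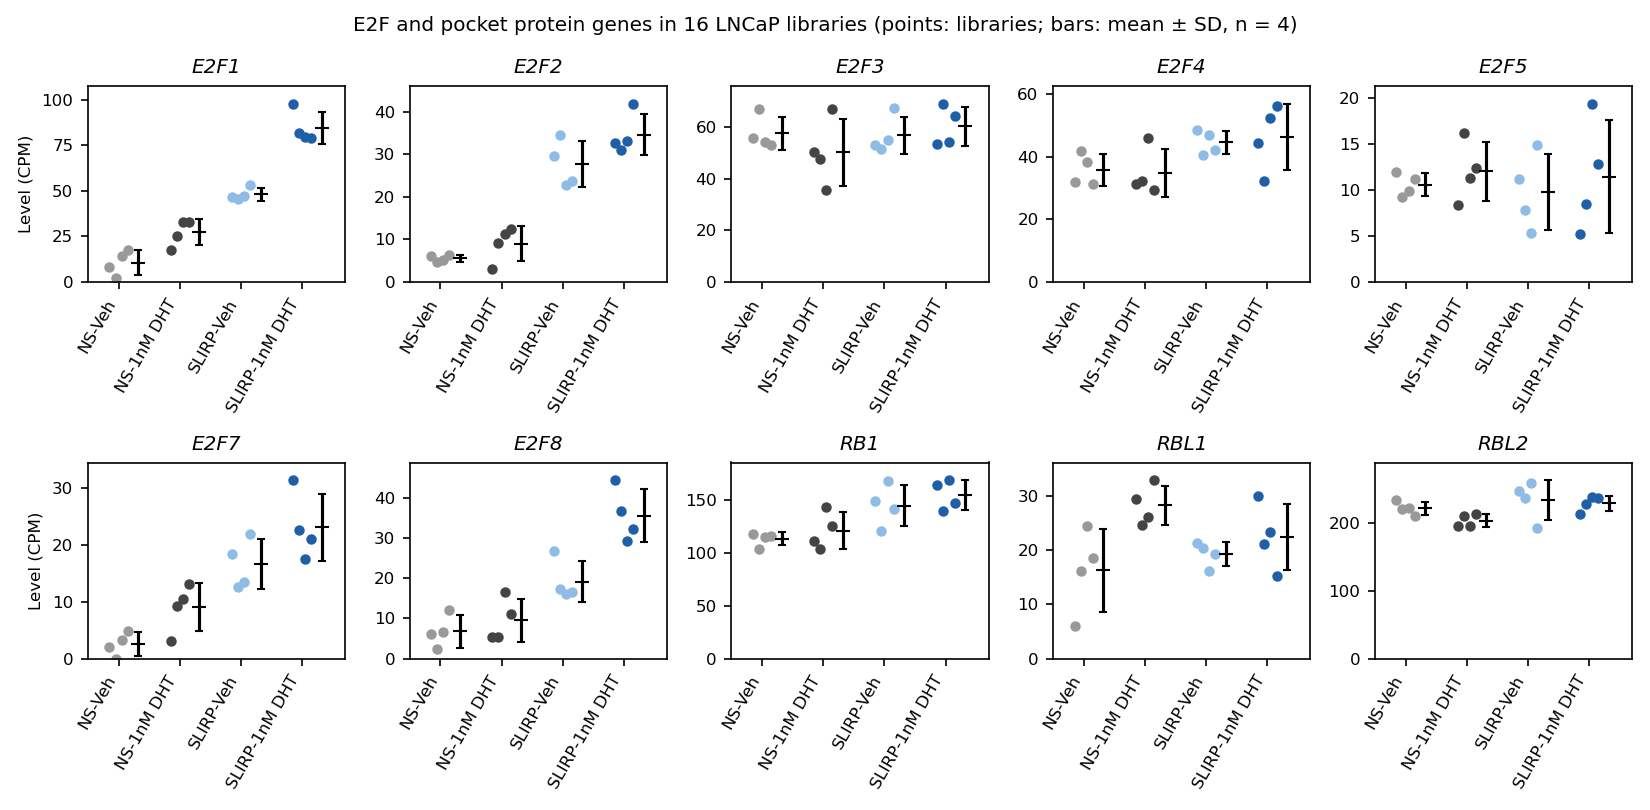
Level in CPM (vertical axis, from 0) of each gene in the 16 libraries, by group; points are libraries and bars the mean ± SD of 4. E2F1 had a mean of 10.6 CPM in NS-Veh and 84.5 CPM in SLIRP-1nM DHT with no overlap between groups, while E2F3 and E2F5 overlapped across all groups.

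Over all 16 libraries (vehicle and DHT together), 5 of the 10 genes were higher with SLIRP siRNA at an FDR of 0.01 in edgeR, namely E2F1, E2F2, E2F7, E2F8 and RB1. The background was 17.8% of the 10167 genes tested called higher and 17.4% called lower. E2F2, E2F7 and E2F8 were too low in the NS libraries alone to pass the filter on low counts. They were tested only through the SLIRP libraries, where they are high, so a call of higher was favoured in advance. Their calls are thus not independent of the filter, here or in the separate comparisons in vehicle and in DHT. None of the 10 was called lower by edgeR, DESeq2 or limma, and 0 were lower at an unadjusted p under 0.05 in edgeR. The 10 genes had a median log2 fold change of 0.37, against -0.01 over all genes tested. For 2 genes, E2F1 and E2F2, all 8 SLIRP libraries lay above all 8 NS libraries, an arrangement that 7.89% of all genes tested showed. E2F1 and E2F7 belong to a class of genes that the study defined on these same libraries by their response to androgen and to SLIRP loss, so for them a higher level is not independent evidence.

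E2F1, the activator best known for tying RB1 to S-phase entry (Entrez 1869), spans chr20:32263283-32274191 on hg19 in 7 exons and overlaps no other annotated exon. In NS-Veh its levels were 8.01, 2.32, 14.5 and 17.7 CPM in replicates 1 to 4. NS-1nM DHT had 17.8, 25.5, 33.1 and 32.9 CPM. SLIRP-Veh had 46.8, 45.4, 47.1 and 53.5 CPM, and SLIRP-1nM DHT had 97.8, 81.8, 79.6 and 78.8 CPM. No 2 of the 4 groups overlapped, although the highest NS-Veh library and the lowest NS-1nM DHT library all but met at 17.7 and 17.8 CPM. The lowest values rested on few reads, with 4 and 1 counts in the shallow replicates 1 and 2 of NS-Veh. Over 16 libraries the log2 fold change was 1.63 (SE 0.22, edgeR FDR 2.73e-07), a 3.09-fold difference. Without both shallow NS-Veh libraries, a check added after the data were seen, it was 1.48 (FDR 7.12e-07).

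E2F2, a close relative with the same activating role, lies at chr1:23832930-23857725 on hg19. It had 6.004, 4.64, 5.28 and 6.42 CPM in NS-Veh and 3.14, 9.25, 11.3 and 12.4 CPM in NS-1nM DHT. With SLIRP siRNA it reached 29.6, 34.4, 22.9 and 23.7 CPM in vehicle and 32.6, 31.0, 33.0 and 41.8 CPM in DHT. The lowest SLIRP library was well above the highest NS library, and the vehicle and DHT libraries overlapped under either siRNA. Its log2 fold change of 1.99 (SE 0.21, edgeR FDR 4.57e-09), or 3.97-fold, was the highest among the 10 genes over 16 libraries. Counts were low in NS-Veh, from 2 to 8 a library.

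E2F3, the third activator, was not called. It ranged from 35.7 to 67.3 CPM in the 8 NS libraries and from 51.7 to 69.1 CPM in the 8 SLIRP libraries, with medians of 53.6 and 54.8. The ranges overlapped over most of their width. The log2 fold change over 16 libraries was 0.14 with a 95% interval of -0.10 to 0.38 (edgeR FDR 0.345), which leaves room for a difference of either sign but not for one as large as that of E2F1. Reads from its separate start sites are summed in the gene table, so transcripts from the printed window and from the second window cannot be told apart.

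E2F4 and E2F5, the repressors that work with RBL1 and RBL2, were not called. E2F4 lay between 29.2 and 46.2 CPM with NS siRNA and between 32.4 and 56.3 CPM with SLIRP siRNA. Its medians were 32.2 and 45.7 CPM, and the ranges overlapped. Its log2 fold change of 0.40 (SE 0.13) had an edgeR FDR of 0.0116, just over the threshold, and it passed with treatment as a covariate (FDR 0.00809) and with RLE factors (FDR 0.0097). E2F5 had only 4 to 21 counts a library, and its log2 fold change was -0.04 with an interval of -0.52 to 0.45. E2F5 shares 991 exonic bases with RBIS on the opposite strand, and with the strand setting of the counting not given in the sources used here, its reads and those of RBIS cannot be told apart.

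E2F7 and E2F8, the atypical repressors with a pair of DNA-binding domains each, were both higher with SLIRP siRNA. E2F7 had 2.00, 0, 3.30 and 4.82 CPM in NS-Veh and 3.14, 9.25, 10.5 and 13.2 CPM in NS-1nM DHT. It had 18.4, 12.5, 13.5 and 21.9 CPM in SLIRP-Veh and 31.3, 22.6, 17.5 and 20.9 CPM in SLIRP-1nM DHT. Only replicate 4 of NS-1nM DHT, at 13.2 CPM, reached into the SLIRP range. The log2 fold change over 16 libraries was 1.56 (SE 0.29, edgeR FDR 3.95e-05). In NS-Veh the gene had 1, 0, 5 and 6 counts, and a library with 0 counts allows up to 3, or 6.95 CPM in the shallow replicate 2, counting error only.

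For E2F8 the levels were 6.004, 2.32, 6.61 and 12.0 CPM in NS-Veh and 5.24, 5.398, 16.6 and 10.97 CPM in NS-1nM DHT. SLIRP-Veh gave 26.6, 17.2, 16.1 and 16.6 CPM, and SLIRP-1nM DHT gave 44.3, 36.7, 29.1 and 32.2 CPM. Replicate 3 of NS-1nM DHT was level with the lower SLIRP-Veh libraries, and the rest of the NS libraries were below them. Its log2 fold change was 1.62 (SE 0.26, edgeR FDR 4.78e-06). E2F8 shares 7 exonic bases with CSRP3-AS1 on the opposite strand.

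Among the pocket proteins RB1 alone was called. RB1, the retinoblastoma protein gene (chr13:48877880-49173572 on hg19), had 118.1, 104.3, 115.0 and 116.4 CPM in NS-Veh and 111.1, 104.1, 143.7 and 125.8 CPM in NS-1nM DHT. With SLIRP siRNA it had 149.2, 120.6, 168.2 and 142.0 CPM in vehicle and 164.3, 139.6, 169.0 and 147.2 CPM in DHT. The groups leaned apart but overlapped, since replicate 3 of NS-1nM DHT was above 3 of the 8 SLIRP libraries. The log2 fold change was 0.35 (SE 0.08, edgeR FDR 0.000931), a 1.27-fold difference, far smaller in size than that of E2F1 yet better measured, with 45 to 252 counts a library.

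RBL1, the pocket protein gene that is itself an E2F target, was not called. It lay between 6.004 and 32.9 CPM with NS siRNA and between 15.3 and 30 CPM with SLIRP siRNA, and the SLIRP range fell wholly inside the NS range. Its log2 fold change was -0.21 with an interval of -0.60 to 0.18 (edgeR FDR 0.394). RBL2, the pocket protein gene most associated with resting cells, ranged from 195.0 to 234.2 CPM with NS siRNA and from 192.8 to 259.7 CPM with SLIRP siRNA. Its log2 fold change was 0.13 with an interval of -0.01 to 0.27 (FDR 0.136). RBL1 shares 213 exonic bases with an unnamed long noncoding RNA, and RBL2 shares 609 with AKTIP and 721 with an unnamed locus. All of these lie on the opposite strand, and the share of such reads in the counts of RBL1 and RBL2 is unknown.

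**Figure D2:**
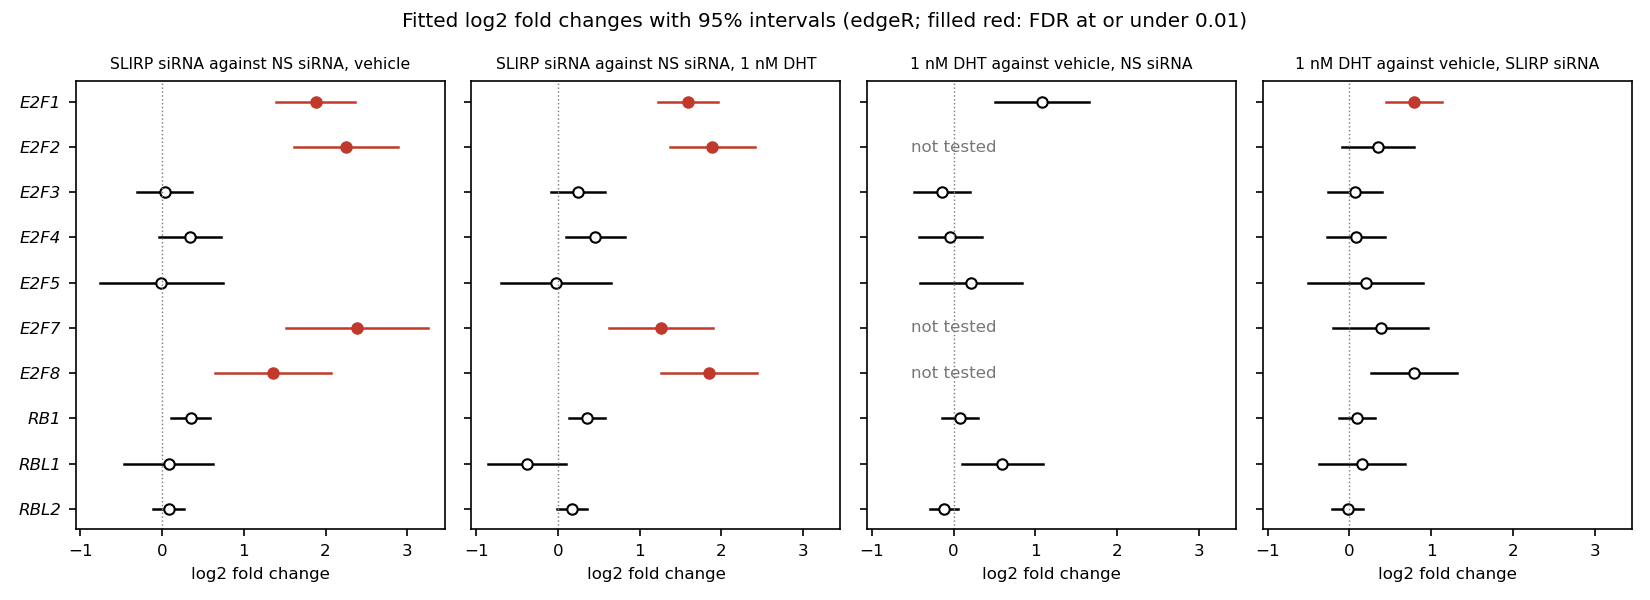
Fitted log2 fold change (point) with its 95% interval (line) for each gene in 4 comparisons of 4 against 4 libraries; filled red points passed an FDR of 0.01 in edgeR. E2F1, E2F2, E2F7 and E2F8 passed for SLIRP siRNA in vehicle and in DHT, and E2F1 passed for DHT with SLIRP siRNA.

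The same question was put separately in vehicle and in DHT, from contrasts of a 4-group model. In vehicle, 4 of the 10 genes were called higher with SLIRP siRNA, against a background of 11.8% of 10684 genes called higher and 9.95% called lower. E2F7 led with a log2 fold change of 2.38 (SE 0.43, edgeR FDR 3.19e-05), followed by E2F2 at 2.25 (SE 0.32, FDR 5.1e-07), E2F1 at 1.88 (SE 0.24, FDR 8.74e-08) and E2F8 at 1.36 (SE 0.35, FDR 0.00245). All 4 SLIRP-Veh libraries were above all 4 NS-Veh libraries for 5 genes, these 4 and RB1, which 15.3% of all genes tested also showed. RB1 had a log2 fold change of 0.35 (SE 0.12) and an FDR of 0.0196. E2F8 was the least stable of the 4 calls, with an FDR of 0.0202 without NS-Veh replicate 3, 0.0398 without SLIRP-Veh replicate 1 and 0.0236 without both shallow NS-Veh libraries.

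In DHT the same 4 genes were called higher, against a background of 12.8% called higher and 11.6% called lower. Here E2F2 led with a log2 fold change of 1.89 (SE 0.26, edgeR FDR 2.35e-07), then E2F8 at 1.85 (SE 0.29, FDR 3.19e-06), E2F1 at 1.59 (SE 0.18, FDR 5.92e-09) and E2F7 at 1.26 (SE 0.31, FDR 0.00156). The E2F7 call was lost without SLIRP-1nM DHT replicate 1 (FDR 0.0106) and in limma on the normalized table, with FDRs of 0.227 at a pseudocount of 1, 0.473 at 0.1 and 0.191 with a mean of at least 100. At a pseudocount of 0.1 limma did not call E2F7 in vehicle (FDR 0.0145) or over 16 libraries (FDR 0.0291) either. For 5 genes, these 4 and RBL2, all SLIRP-1nM DHT libraries were above all NS-1nM DHT libraries, an arrangement shown by 15.8% of all genes tested. RB1 had a log2 fold change of 0.36 (SE 0.11) and just missed the call at an FDR of 0.0107, and it passed in 10 of the 16 fits that left out 1 library. RBL1 was at -0.37 with an interval of -0.85 to 0.10. No member was called lower in vehicle or in DHT by edgeR, DESeq2 or limma, and 0 had an unadjusted p under 0.05 in that direction in edgeR.

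DHT was then compared with vehicle under each siRNA. With NS siRNA the 3 genes E2F2, E2F7 and E2F8 did not pass the filter on low counts, and 0 of the other 7 were called by edgeR, DESeq2 or limma. The background was 0.849% of 10367 genes called higher and 0.463% called lower. The class of the study that holds E2F1 and E2F7 was drawn from its list of androgen-regulated genes. That list came from this same comparison by another method, SAM, so the calls here and in the study differ for these genes. In edgeR, 2 of the 7 were higher and 0 were lower at an unadjusted p under 0.05, and these were E2F1 and RBL1. E2F1 had a log2 fold change of 1.08 (95% interval 0.50 to 1.65, edgeR FDR 0.0298), and RBL1 one of 0.60 (interval 0.10 to 1.09, FDR 0.223). For both, every NS-1nM DHT library was above every NS-Veh library, which 4.87% of all genes tested showed. In a 4-group fit without the 2 shallow vehicle libraries the log2 fold changes were 0.78 (FDR 0.172) for E2F1 and 0.37 (FDR 0.694) for RBL1. Both the model and the libraries differ from the fit above, so the difference cannot be put down to the 2 libraries alone. From the 4-group model on all 16 libraries, where they were tested, E2F2 was at 0.71 (FDR 0.452), E2F7 at 1.504 (FDR 0.0916) and E2F8 at 0.30 (FDR 0.831).

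With SLIRP siRNA, DHT raised 1 of the 10 genes, E2F1, against a background of 0.636% of 10684 genes called higher and 0.534% called lower. Its log2 fold change was 0.79 (SE 0.17, edgeR FDR 0.00397), or 1.73-fold. The call was lost without SLIRP-Veh replicate 1 (FDR 0.0243), SLIRP-Veh replicate 3 (0.0126), SLIRP-1nM DHT replicate 1 (0.0177) or SLIRP-1nM DHT replicate 3 (0.0105), and in limma (FDR 0.381 to 0.473), with the log2 fold change between 0.73 and 0.85 in all 16 fits that left out 1 library. All 4 DHT libraries were above all 4 vehicle libraries for E2F1 and E2F8, as for 4.31% of all genes tested. E2F8 had a log2 fold change of 0.79 (SE 0.26, FDR 0.0912), E2F7 one of 0.38 (interval -0.20 to 0.97) and E2F2 one of 0.35 (interval -0.09 to 0.79). The pocket protein genes were not called, with RB1 at 0.09 (interval -0.13 to 0.31), RBL1 at 0.15 (interval -0.37 to 0.68) and RBL2 at -0.02 (interval -0.21 to 0.17). The RBL1 interval is wide and includes the 0.60 found with NS siRNA.

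Whether the DHT response itself differed between the siRNAs was tested as an interaction. It called 0 of 10684 genes in edgeR (0%), in DESeq2 and in limma, and 388 had an unadjusted p under 0.05 in edgeR, none of them a member. E2F7 came nearest, with a difference of -1.12 in log2 fold change (interval -2.25 to 0.01, edgeR FDR 1.00). For E2F1 the difference was -0.29 (interval -0.92 to 0.34) and for RBL1 -0.46 (interval -1.18 to 0.27). These intervals are wide, and they neither show that the responses differ nor that they are alike. The vehicle and DHT comparisons within a siRNA share libraries with those between siRNAs, so their values stand side by side and do not count as separate evidence.

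**Figure D3:**
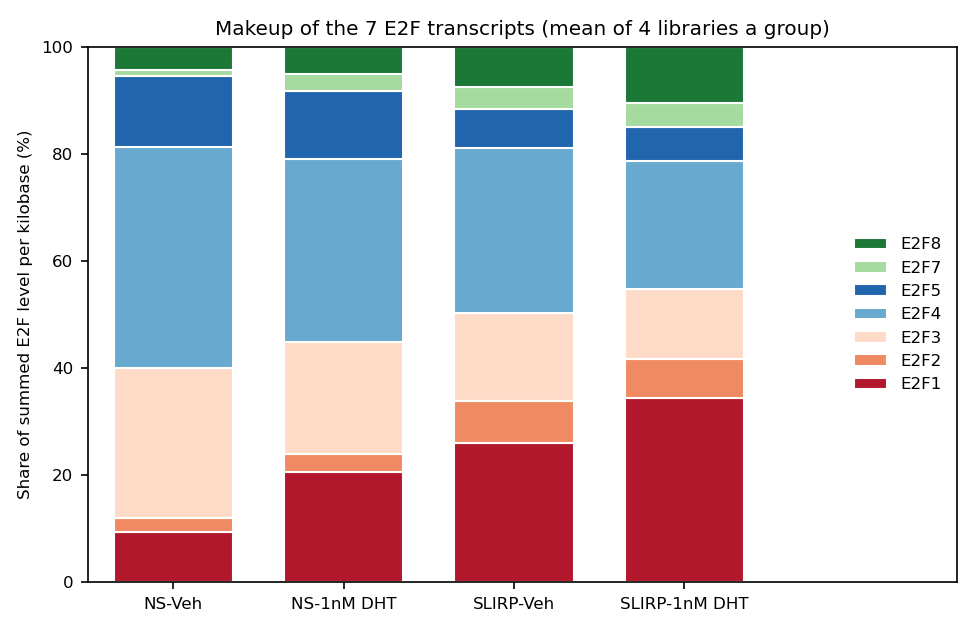
Share of each E2F gene (vertical axis, %) in the summed level per kilobase of the 7 E2F transcripts, as the mean of 4 libraries in each group. E2F1 took 9.45% in NS-Veh and 34.4% in SLIRP-1nM DHT, and E2F4 took 41.4% and 23.9%.

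To compare genes with each other, CPM was divided by the length of the canonical GENCODE transcript in kilobases. RBL2 had the highest level per length in every group, with means from 41.9 to 48.2 CPM per kilobase, and RB1 was second at 23.8 to 32.5. In NS-Veh the order went on with E2F4 at 17.0 ± 2.38, E2F3 at 11.4 ± 1.30 and E2F5 at 5.401 ± 0.63 CPM per kilobase (SD, n = 4), and no 2 neighbours among these 5 genes overlapped in their libraries. Below them E2F1 at 3.95 ± 2.55 and RBL1 at 2.86 ± 1.35 overlapped each other and E2F1 overlapped E2F5. E2F8 at 1.82 ± 1.08, E2F2 at 1.08 ± 0.15 and E2F7 at 0.44 ± 0.36 ended the order, the first of them overlapping RBL1 and E2F2. In SLIRP-1nM DHT, E2F1 stood behind RBL2 and RB1 at 31.4 ± 3.33 CPM per kilobase, where its libraries (29.3 to 36.4) overlapped those of RB1 (29.3 to 35.4) and were all above those of E2F4 (15.4 to 26.7). RBL1 stood at the end of the order at 3.94 ± 1.07, overlapping E2F7 at 4.03 ± 1.03.

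As a share of the summed per-length level of the 7 E2F genes, E2F1 took 9.45% ± 5.79 in vehicle and 20.6% ± 2.53 in DHT with NS siRNA, and 26.1% ± 1.501 in vehicle and 34.4% ± 3.69 in DHT with SLIRP siRNA (SD, n = 4). E2F4, the main repressor by this measure, took 41.4% ± 6.13, 34.2% ± 6.33, 30.9% ± 3.11 and 23.9% ± 4.39 in the same order. These shares are tied to each other, since a higher share of E2F1 lowers the rest without any change in their own level. E2F8 took 4.37% ± 2.46 in NS-Veh and 10.5% ± 2.04 in SLIRP-1nM DHT.

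**Figure D4:**
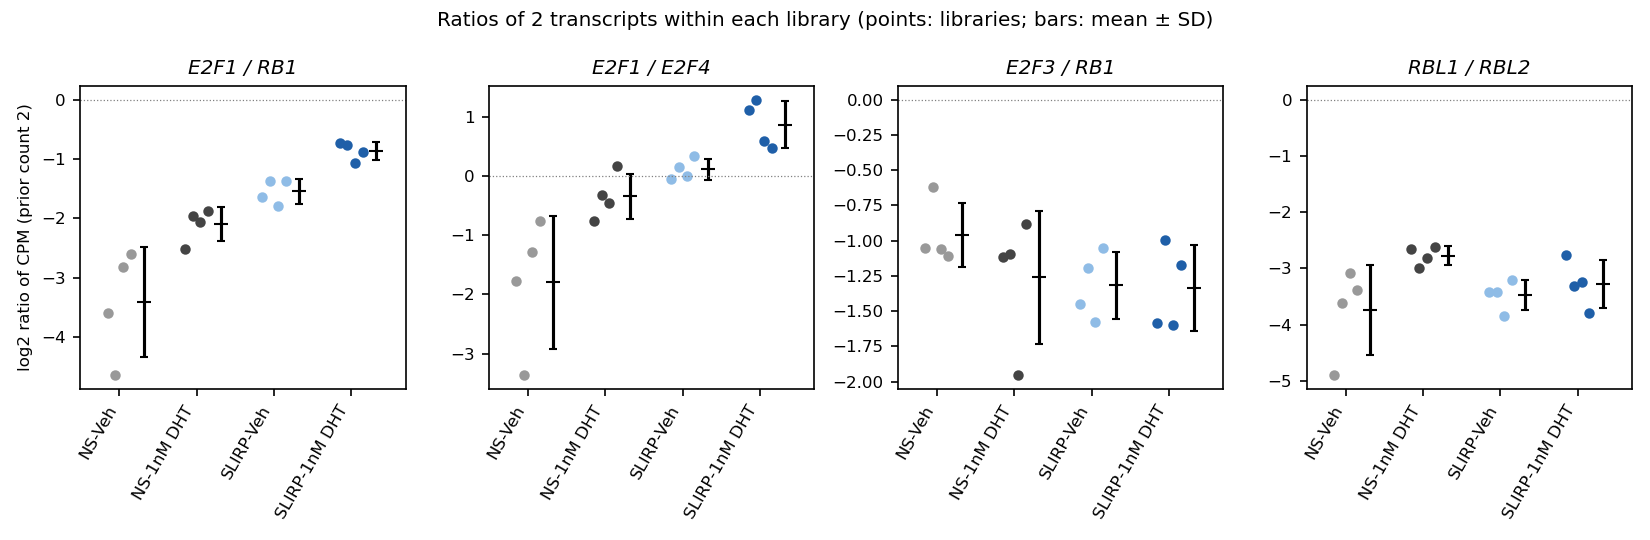
Log2 ratio of the CPM of 2 genes within each library (vertical axis; prior count of 2), by group; points are libraries and bars the mean ± SD of 4. E2F1 over RB1 went from -3.41 in NS-Veh to -0.86 in SLIRP-1nM DHT, and E2F3 over RB1 did not follow it.

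Ratios taken within a library set 1 transcript against another, such as an activator against the gene whose product restrains it. The prior count of 2 is scaled to each library, so at low counts the library scaling does not cancel fully. E2F1 had only 4 and 1 counts in NS-Veh replicates 1 and 2, so its ratios there depend on the prior. The log2 ratio of E2F1 to RB1 with NS siRNA was -3.41 ± 0.92 in vehicle and -2.10 ± 0.29 in DHT, and with SLIRP siRNA it was -1.54 ± 0.21 in vehicle and -0.86 ± 0.15 in DHT (SD, n = 4). Libraries of neighbouring groups in this order did not overlap. For E2F1 over E2F4, activator against repressor, the means were -1.79 ± 1.12, -0.34 ± 0.38, 0.11 ± 0.17 and 0.86 ± 0.39 in the same order, so that E2F4 had more counts than E2F1 in all NS-Veh libraries and fewer in all SLIRP-1nM DHT libraries. E2F3 over RB1 gave -0.96 ± 0.23, -1.26 ± 0.47, -1.32 ± 0.24 and -1.34 ± 0.30, with overlapping libraries throughout. RBL1 over RBL2 was -3.74 ± 0.80 and -2.77 ± 0.17 in vehicle and DHT with NS siRNA, and -3.47 ± 0.27 and -3.28 ± 0.42 with SLIRP siRNA. These ratios of transcripts are given as descriptions, without a test, and say nothing of protein or of phosphorylation.

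Across the 16 libraries the log2 CPM of E2F1 ran with that of E2F7 (Pearson r = 0.97), E2F8 (r = 0.92), E2F2 (r = 0.87) and RB1 (r = 0.79), and not with that of E2F3 (r = 0.02) or E2F5 (r = -0.03). For RBL1 and RBL2 it was 0.37 and 0.18. These points share the 4 groups and the library depths, so a gene that merely differs between the siRNAs will correlate. Among the 6960 genes that averaged at least 30 counts, the patterns most like that of E2F1 over 16 libraries were those of HIST1H2AG (r = 0.98), TCF19 (r = 0.98) and ERCC6L (r = 0.97), of which HIST1H2AG is a member of a histone multigene family whose reads may be split between copies. The nearest to RBL2 were SMARCC2 (r = 0.76), GDAP2 (r = 0.75) and WDR91 (r = 0.75).

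**Figure D5:**
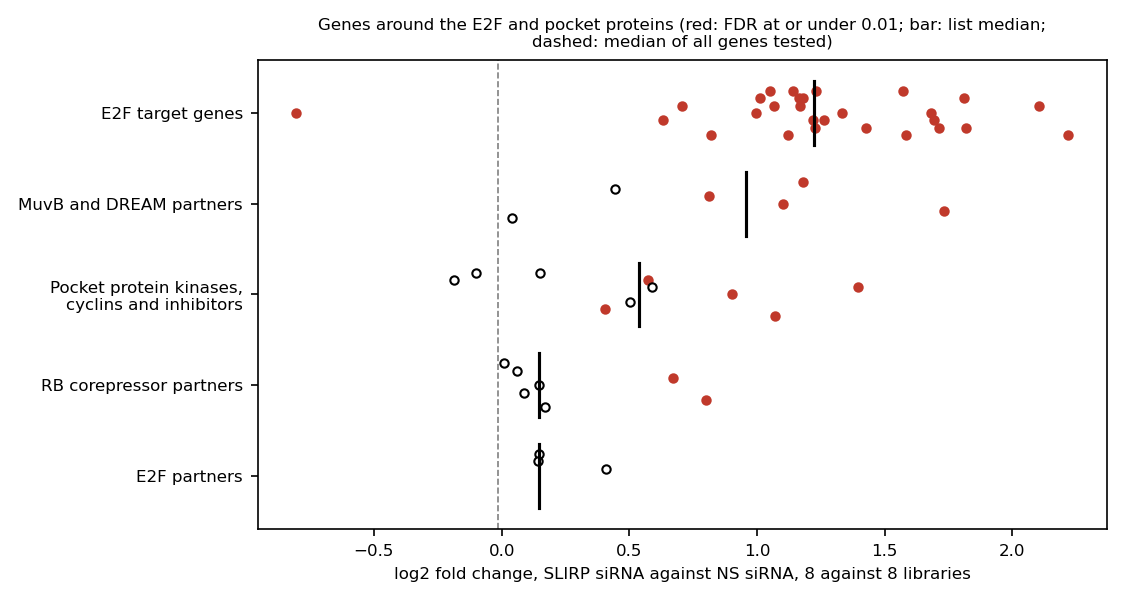
Log2 fold change with SLIRP siRNA over 8 against 8 libraries (horizontal axis) for each tested gene of 5 lists; red points passed an FDR of 0.01 in edgeR, bars are list medians and the dashed line is the median of all genes tested. All but 1 of the 28 E2F targets lie to the right. None of the E2F partners tested passed, and TFDP2 lies farthest to the right of them at 0.41.

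Of 28 E2F target genes, 27 were called higher with SLIRP siRNA over 16 libraries and 1 was called lower, against 17.8% and 17.4% of all genes tested, with a median log2 fold change of 1.22 against -0.01 over all genes tested. TYMS, the thymidylate synthase gene, rose by 2.22 (SE 0.15, edgeR FDR 7.19e-13), RRM2, a subunit of ribonucleotide reductase, by 2.11 (SE 0.17, FDR 2.55e-11) and TOP2A, the replication and mitosis topoisomerase, by 1.82 (SE 0.14, FDR 5.38e-12). SKP2, which encodes the subunit of a ubiquitin ligase that recognises p27, fell by 0.80 (SE 0.21, FDR 0.00217) and is named here after its value was seen. In vehicle 27 of the 28 were higher (median 1.40) and in DHT 26 (median 1.15), against 11.8% and 12.8% of all genes tested. DHT raised 9 of 27 with NS siRNA (median 0.74) and 4 of 28 with SLIRP siRNA (median 0.39), against 0.849% and 0.636% of all genes tested called higher and medians of 0.000997 and -0.00106 over all genes tested. The helicase subunit gene MCM4, RRM2 and CDK1 passed under both siRNAs, and MCM4 and CDK1 are named here after their values were seen. In the interaction, 0 of the 28 were called by edgeR, and 3 had a difference above 0 (median -0.32, against -0.02 over all genes tested).

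Among the MuvB and DREAM partners, 4 of the 6 tested were higher with SLIRP siRNA over 16 libraries, against 17.8% of all genes tested. MYBL2, which replaces the repressive pocket proteins on MuvB as cells enter S phase, rose by 1.73 (SE 0.17, edgeR FDR 1.59e-09), FOXM1, which joins MuvB in G2, by 1.18 (SE 0.17, FDR 6.72e-07) and the MuvB core subunit LIN54 by 0.81 (SE 0.13, FDR 3.82e-06). With NS siRNA, DHT raised MYBL2 by 1.12 (FDR 0.00391), the 1 call among 6, against 0.849% of all genes tested. The median of the list was 0.96 for SLIRP siRNA over 16 libraries and 0.35 for DHT with NS siRNA.

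The genes that set the activity of pocket proteins were mixed. Of 10 tested kinase, cyclin and inhibitor genes, 5 were higher and 5 were not called, with a median of 0.54, beside the 17.8% of all genes tested that were called higher. CDKN1A, whose product p21 inhibits the kinases that act on RB1, rose by 1.07 (SE 0.11, edgeR FDR 1.93e-09), whereas CCNE2, a cyclin E gene that promotes them, rose by 0.90 (SE 0.17, FDR 4.16e-05) and the D-type cyclin CCND3 by 0.57 (SE 0.12, FDR 0.000289). Of 7 tested corepressor partners of RB1, 2 were higher, RBBP8 by 0.80 (SE 0.16, FDR 8.6e-05) and the deacetylase HDAC2 by 0.67 (SE 0.07, FDR 6.67e-09), and the list median was 0.15. With so few genes, a count of 2 is not far from that background. None of the 3 tested E2F partners passed in edgeR. TFDP2, a DP subunit with which E2F1 to E2F5 bind DNA, was at 0.41 (FDR 0.0126), TFDP1 at 0.14 (FDR 0.308) and E2F6 at 0.15 (FDR 0.54). These 3 were named after their values were seen.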

How the data were processed

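LNCaP RNA was sequenced in 16 libraries, 4 in each of 4 groups taken from the sample labels. Reads were mapped to hg19 by the authors, who deposited estimated counts for 20531 entries, rounded to whole numbers (29 have no symbol), and a normalized table of 13148 genes, a score made by dividing the estimated counts by a library's upper quartile. CASAVA and RSEM are named in the submitters' processing notes without versions, and the strand setting of the counting is not given in the sources used here. Low counts limit precision, and floors of 3 counts cover counting error only.

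The deposited estimated counts were fitted in edgeR 4.0.16 (R 4.3.3) by quasi-likelihood, with TMM factors and filterByExpr. The p-values were adjusted by Benjamini-Hochberg over all genes that passed the filter, and calls were made at 0.01. The siRNA comparison over 16 libraries had no covariate, DHT with NS siRNA was fitted on those 8 libraries alone, and the rest were contrasts of a 4-group model. The prior count of log2 CPM was 2. Alternatives were DESeq2 1.42.0, limma 3.58.1 on the normalized table (pseudocounts 1 and 0.1), other size factors and filters, the replicate block and leaving out each library. The models were checked on simulated data. All 10 genes are described; from the lists, the text names the 3 largest rises and falls over 16 libraries that were called and averaged at least 30 counts, a few genes outside this rule that are marked as such, and, for E2F1 and RBL2, the 3 genes most alike. The genes and lists were chosen with earlier results of these data known, and some marker genes are not reported here. Promoter windows come from RefSeq (GRCh38.p14) and lengths, exons and hg19 positions from GENCODE. Figures used matplotlib 3.10.9.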

Additional observations from a re-analysis of the deposited data

Results flagged for a closer look

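In 2 of the 40 sets of 4 libraries (10 genes in 4 groups) a single library stood apart from the other 3 by Dixon's ratio, and chance gives about 1 in 20. For E2F1, replicate 1 of SLIRP-1nM DHT was high, at 97.8 CPM against 78.8 to 81.8 CPM in the other 3. For E2F8, replicate 1 of SLIRP-Veh was high, at 26.6 CPM against 16.1 to 17.2 CPM in the other 3.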

How the results depend on the processing

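The 14 calls on single genes had 374 alternative values, all of the same direction, and 358 stayed called. Requiring 10 counts in each library removed E2F1, E2F2, E2F5, E2F7, E2F8 and RBL1 from the test. It called 2 members higher over 16 libraries (RB1 and E2F4, the latter at an FDR of 0.00712), 0 in vehicle, 1 in DHT (RB1, FDR 0.00752) and 0 for DHT with SLIRP siRNA, and 14, 14 and 13 of the E2F targets in the 3 siRNA comparisons. Of the 6934 genes tested under this rule, 1376, 959 and 1053 were called higher in the 3 siRNA comparisons, and 71 for DHT with SLIRP siRNA. For DHT with NS, 1 member (E2F1) was called at an FDR of 0.05 and without a filter. Over all genes, 164 of 10367 were called higher at an FDR of 0.05 and 153 of 16042 without a filter. For DHT with SLIRP siRNA, 0 were called by limma at either pseudocount or with a mean of at least 100, and 0 to 1 when 1 library was left out. Without a filter the interaction called 5 genes higher and 6 lower, none of the 10 among them. The cause of these changes was not tested, beyond the genes that a filter removes.

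Same-numbered replicates were not shown to be paired: the mean correlation of their deviations was 0.03 for the siRNA comparison in vehicle, 0.09 in DHT, 0.14 for DHT with NS and 0.10 with SLIRP siRNA, and some pairs were near 0. With the replicate block, 1 member was called for DHT with NS (E2F1, 1.22, edgeR FDR 0.00224). For SLIRP siRNA, 5 members each were called in vehicle and in DHT, RB1 being the addition (0.38, FDR 0.00525, and 0.34, FDR 0.00499). The block also gave more calls of higher over all genes tested, 169 in place of 88 of 10367 for DHT with NS. For SLIRP siRNA they were 1307 in place of 1256 of 10684 in vehicle and 1440 in place of 1370 in DHT.

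Values that changed sign were all uncalled. E2F5 turned to 0.0678 with the replicate block in vehicle, and its interaction to 0.0176 in DESeq2 and 0.00372 with RLE factors. RBL1 in vehicle turned to -0.15, and the E2F1 interaction to 0.0192, without both shallow NS-Veh libraries. In limma at pseudocounts 1 and 0.1 and with a mean of at least 100, E2F3 in vehicle was -0.0202, E2F4 for DHT with SLIRP siRNA -0.0103 (-0.01025 at pseudocount 1) and the RB1 interaction -0.0355 (-0.03555 at 0.1), and the last was -0.0303 with the replicate block. Leaving out 1 library gave ranges across 0 for E2F5 over 16 libraries (-0.20 to 0.078), in vehicle (-0.23 to 0.14), in DHT (-0.38 to 0.19), for DHT with SLIRP siRNA (-0.16 to 0.44) and for the interaction (-0.37 to 0.23). The ranges were -0.0558 to 0.0754 for E2F3 and -0.0911 to 0.40 for RBL1 in vehicle, -0.20 to 0.0402 for E2F4 and -0.0116 to 0.15 for RB1 in DHT with NS, -0.018 to 0.20 for E2F4 and -0.11 to 0.0386 for RBL2 in DHT with SLIRP siRNA, and -0.0418 to 0.12 for the RB1 interaction. Depth limits E2F2, E2F5, E2F7 and E2F8 most.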
